A study of Mus musculus with 7 samples.

Results

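The polyamine synthesis and breakdown genes were followed in the soleus, a slow-twitch hindlimb muscle, of dystrophic mice. They were chosen by name: the synthetic enzymes Odc1, Amd1, Srm and Sms, the antizymes Oaz1 and Oaz2, the antizyme inhibitor Azin1, and the catabolic enzymes Smox and Sat1. Of these 9 genes, 8 were read from a table of 29869 gene symbols, and Amd1 was not analysed here. Whole-muscle RNA was sequenced from 7 mice aged 60 days, 3 labelled mdx/Runx1f/f and 4 labelled mdx. The mdx mutation, which abolishes dystrophin, was common to all 7 animals, and the mdx/Runx1f/f animals also carried floxed alleles of the transcription factor gene Runx1. The labels name no Cre driver, so the cells in which Runx1 would be deleted are not known here. The comparison asks which transcripts respond to Runx1 in mdx muscle.

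Putrescine, spermidine and spermine are small polycations that bind RNA and other nucleic acids and are needed for growth and translation. Cells make putrescine from ornithine with ornithine decarboxylase, add aminopropyl groups to reach spermidine and spermine, and return along the same chain by oxidation or by acetylation and export. Antizymes hold the pathway in check: polyamines promote a ribosomal frameshift on the antizyme mRNA, and the protein then carries ornithine decarboxylase to the proteasome. In mouse skeletal muscle, Smox falls in atrophying fibres.

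Odc1 and Sat1, which encode the enzymes that open the synthetic and the catabolic branch, rose in the muscles labelled mdx/Runx1f/f, 1.52-fold and 2.03-fold over those labelled mdx. Sms and Smox, which act on spermine from opposite sides, had fold changes of 1.92 and 2.48 but did not pass the test, and both stood highest in the same library. Srm and Azin1 did not pass the test either. Oaz1 was close to 0 and Oaz2 was listed at 0. Of the 6 members that passed the filter on low counts, 2 rose and 0 fell by edgeR's quasi-likelihood test at a Benjamini-Hochberg adjusted p below 0.05, beside 6.95% of the 14033 genes tested (5.10% higher and 1.85% lower). At an unadjusted p below 0.05 there were 4 higher and 0 lower members, beside 29.5% of all tested genes. DESeq2 on the same counts called 4 higher and 0 lower members, beside 17.0% of all tested genes, and limma-voom 2 and 0, beside 7.30%. The members' median log2 fold change was 0.77, against -0.0016 over all tested genes. For 3 of the 6 (Odc1, Sms and Sat1) the groups had no overlap, beside 27.4% of all tested genes (13.9% with mdx/Runx1f/f higher). Each of these 6 members had at least 132 raw counts in every library.

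The libraries held 16218306 to 20847902 counts. Runx1 itself stood at 919, 925 and 596 normalised counts in mdx/Runx1f/f libraries, against 274, 273, 235 and 201 in mdx libraries (log2 fold change 1.74, SE 0.18, edgeR adjusted p = 0.00795). This rise goes against a loss of its transcript, and gene-level counts include exons outside a deleted part, so mdx/Runx1f/f and mdx here name what the libraries were labelled. The description labels tie most animal numbers to other samples, and the design text gives 3 mdx and 4 mdx/Runx1f/f muscles, so every direction rests on the sample titles. The titles name 7 animals, taken here as separate replicates. All 6 slow-fibre markers had reads. Their summed levels were 7030 to 26135 CPM (counts scaled to library size) in mdx/Runx1f/f libraries and 23308 to 41477 CPM in mdx libraries. The library mdx/Runx1f/f replicate 1 stood apart, with the lowest slow-fibre sum, the highest sum of the 7 fast-fibre markers (73676 CPM, against 22509 to 36458 CPM in the other 6 libraries), and 246072 normalised counts of Myh4, a fast myosin heavy chain gene. The fold changes of Sms, Smox and Gatm, which were highest in it, are given with and without it.

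**Figure D1:**
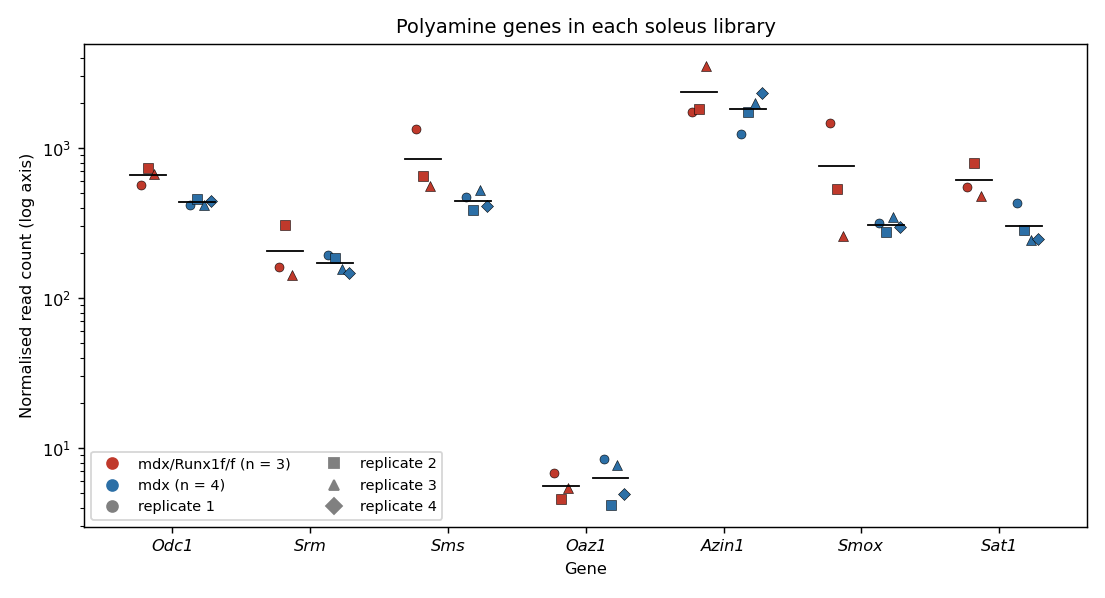
Normalised read counts (log axis) of the 7 members with reads, by gene along the horizontal axis, with mdx/Runx1f/f libraries left of mdx libraries. Each point is 1 library and each bar a group mean. Odc1, Sms and Sat1 show no overlap between groups, Smox spreads from 257 to 1476 in the mdx/Runx1f/f libraries, and Oaz1 lies below 10 throughout.

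Odc1 encodes ornithine decarboxylase, the rate-limiting enzyme that makes putrescine. It stood at 565, 731 and 674.5 normalised counts in mdx/Runx1f/f replicates 1 to 3, against 416, 459.5, 414 and 445 in mdx replicates 1 to 4. Every mdx/Runx1f/f library was above every mdx library, and the mdx libraries lay close together. The means were 656.9 ± 84.4 (SD, n = 3) and 433.8 ± 22.3 (SD, n = 4), with a log2 fold change ± SE of 0.61 ± 0.10 (edgeR adjusted p = 0.0207). Within animals 358 to 363 (2 mdx/Runx1f/f and 2 mdx libraries) the log2 difference was 0.56. Within animals 373 to 375 (1 mdx/Runx1f/f and 2 mdx libraries) it was 0.66. The size was stable when single libraries were left out, at 0.52 to 0.70. However, the call was lost without mdx/Runx1f/f replicate 2, mdx replicate 3 or mdx replicate 4 (edgeR adjusted p = 0.0689, 0.0667 and 0.0527). Ranges across the alternatives, here and below, pool edgeR, DESeq2 and limma-voom fits. For Odc1 the adjusted p ran from 0.000182 (DESeq2) to 0.191 (edgeR). The authors' deposited table gives Odc1 a log2 fold change of 0.58 and an adjusted p of 5.29e-05.

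Since Runx1 is the gene targeted in this series, the 250 bases before the annotated start of each member were searched on both strands for the core letters bound by Runx proteins, TGTGGT or TGCGGT, and for the E-box CACGTG, which Myc and other factors bind. RefSeq windows on GRCm38.p6 were found for 7 of the 9 members, in 8 windows because Sms has 2 starts, and Srm and Azin1 had none. Odc1 was the only searched member with a Runx core, TGTGGT beginning 187 bases before its start, on the strand of the gene. TGTGGT occurs in 14% of 32851 mouse start windows of this length, and either core in 18.6%. The Odc1 window (chr12:17544623-17544872, plus strand) is shown 5′ to 3′ with that match in capitals, and the Sat1 window (chrX:155216450-155216699, minus strand) is shown as that of the other member that rose, which held none of the searched letters.
Odc1: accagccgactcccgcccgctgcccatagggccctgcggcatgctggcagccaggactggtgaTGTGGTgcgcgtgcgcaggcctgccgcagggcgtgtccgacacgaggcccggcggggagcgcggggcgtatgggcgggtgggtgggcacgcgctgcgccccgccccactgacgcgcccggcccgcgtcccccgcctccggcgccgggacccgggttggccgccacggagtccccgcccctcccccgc
Sat1: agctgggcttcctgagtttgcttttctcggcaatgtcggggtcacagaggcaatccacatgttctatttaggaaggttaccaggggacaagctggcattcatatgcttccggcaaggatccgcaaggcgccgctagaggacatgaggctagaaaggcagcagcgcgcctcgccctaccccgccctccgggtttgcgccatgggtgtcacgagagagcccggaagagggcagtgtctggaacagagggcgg
A match of letters is a description of the sequence and does not show binding.

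The enzymes that follow Odc1 attach aminopropyl groups. Their donor is made by S-adenosylmethionine decarboxylase, the product of Amd1. The table row of its close copy Amd2, for which RefSeq also lists Amd1 as a synonym, held 266, 131 and 120 normalised counts in mdx/Runx1f/f libraries, against 171, 137, 138 and 153 in mdx libraries. Only mdx/Runx1f/f replicate 1 lay above the mdx range, and replicates 2 and 3 lay below it. No fold change without replicate 1 is given for this row. The groups overlapped (log2 fold change 0.21, SE 0.28, edgeR adjusted p = 0.646), and reads of such copies may be shared or lost, so this value is uncertain.

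Srm encodes spermidine synthase. It stood at 161, 309 and 143 normalised counts in mdx/Runx1f/f libraries, against 194, 185, 156 and 147 in mdx libraries. Only mdx/Runx1f/f replicate 2 lay above the mdx range, and replicate 3 lay below it. The means were 204 ± 91.0 (SD, n = 3) and 170.5 ± 22.7 (SD, n = 4), with a log2 fold change ± SE of 0.27 ± 0.27 (edgeR adjusted p = 0.527). It was -0.15 without mdx/Runx1f/f replicate 2 (edgeR adjusted p = 0.637, with 0.267 to 0.874 across the alternatives).

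Sms encodes spermine synthase, which turns spermidine into spermine. It stood at 1346, 647 and 556 normalised counts in mdx/Runx1f/f libraries, against 469, 383, 524 and 408 in mdx libraries. The groups did not overlap, but replicate 3 of the mdx/Runx1f/f libraries was close to mdx replicate 3, and replicate 1 stood far above all others. The means were 849.6 ± 432 (SD, n = 3) and 446 ± 63.5 (SD, n = 4), with a log2 fold change ± SE of 0.94 ± 0.30 (edgeR adjusted p = 0.0863). It was 0.43 without mdx/Runx1f/f replicate 1 (edgeR adjusted p = 0.125, with 0.0241 to 0.431 across the alternatives). DESeq2 called Sms (adjusted p = 0.0241), as does the authors' deposited table (adjusted p = 0.0307). The upstream of its 2 annotated starts has an E-box beginning 196 bases before it, shown in capitals in the window chrX:157492288-157492537 (minus strand). The E-box letters occur in 6.02% of all start windows, and no other searched window of the members held them.
Sms: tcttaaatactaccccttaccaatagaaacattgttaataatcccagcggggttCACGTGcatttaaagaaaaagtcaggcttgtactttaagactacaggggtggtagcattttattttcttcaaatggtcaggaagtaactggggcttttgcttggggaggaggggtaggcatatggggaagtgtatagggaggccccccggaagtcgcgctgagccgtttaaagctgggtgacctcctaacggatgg

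The antizyme branch was the least measurable part. Antizyme mRNA is abundant in most mammalian tissues, yet Oaz1 had 7, 6 and 5 raw counts in mdx/Runx1f/f libraries and 8, 4, 7 and 5 in mdx libraries. Oaz2 had 0 counts in all 7 libraries, which allows up to 3 counts per library, or 0.144 to 0.185 CPM (counting error only). Neither passed the filter on low counts, so neither was tested. The row named Oaz2-ps, which RefSeq lists as a pseudogene and also as a synonym of Oaz2, held 244, 136 and 209 normalised counts in mdx/Runx1f/f libraries and 123, 188, 248 and 260 in mdx libraries (log2 fold change -0.05, SE 0.30, edgeR adjusted p = 0.923). How the authors' counting treated reads of antizyme transcripts and their copies is not stated by any source used here, so these rows are given as listed and no level of antizyme is read from them. The testis antizyme Oaz3 had at most 1 count in a library.

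Azin1 encodes a relative of ornithine decarboxylase without enzymatic activity, which binds antizyme and so releases the enzyme. It stood at 1738, 1817 and 3524.5 normalised counts in mdx/Runx1f/f libraries, against 1239, 1748, 2001 and 2313 in mdx libraries. The groups overlapped, with mdx/Runx1f/f replicate 3 above all others and mdx replicate 1 lowest. The means were 2360 ± 1009 (SD, n = 3) and 1825 ± 454 (SD, n = 4), and the log2 fold change was 0.38 (SE 0.29, edgeR adjusted p = 0.418). It was -0.04 without mdx/Runx1f/f replicate 3 (edgeR adjusted p = 0.922, with 0.0130 to 0.922 across the alternatives, the lowest from a fit of 1 mdx/Runx1f/f library against 2 mdx libraries). The animal number series differed in level: libraries 373 to 375 had 3524.5 (mdx/Runx1f/f) and 2001 and 2313 (mdx), and libraries 358 to 363 had 1738 and 1817 (mdx/Runx1f/f) and 1239 and 1748 (mdx). The log2 difference was 0.28 within animals 358 to 363 and 0.72 within animals 373 to 375.

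Sat1 encodes spermidine/spermine N1-acetyltransferase, which acetylates polyamines for export or oxidation. It stood at 553, 790 and 481.5 normalised counts in mdx/Runx1f/f libraries, against 429, 284, 242 and 248 in mdx libraries. All mdx/Runx1f/f libraries were higher, with mdx replicate 1 nearest to them. The means were 608 ± 162 (SD, n = 3) and 300.7 ± 87.6 (SD, n = 4), with a log2 fold change ± SE of 1.02 ± 0.24 (edgeR adjusted p = 0.0458). The log2 difference was 0.93 within animals 358 to 363 and 0.98 within animals 373 to 375, which hold 1 mdx/Runx1f/f library. The call lay near the threshold. It was kept without mdx replicate 1 (edgeR adjusted p = 0.0268). Leaving out any of the other 6 libraries lost it (edgeR adjusted p = 0.0523 to 0.147). Across the alternatives the adjusted p ran from 0.00287 (DESeq2) to 0.198 (edgeR). The authors' deposited table gives Sat1 a log2 fold change of 0.90 and an adjusted p of 0.00368.

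Macrophage transcripts moved with Sat1. All 10 macrophage markers had reads, and their summed level was 1011, 2239 and 735 CPM in mdx/Runx1f/f replicates 1 to 3, against 764, 449, 159 and 217 CPM in mdx replicates 1 to 4. The libraries had the same order for Sat1 and for these markers except that mdx/Runx1f/f replicate 3 and mdx replicate 1 changed places. By edgeR 2 of the 10 markers rose, C1qa and C1qb, and the others were not called, beside 5.10% of all tested genes higher. At an unadjusted p below 0.05, 8 of the 10 were higher, beside 29.5% of all tested genes in either direction. None had a negative log2 fold change. Of the 7 fibro-adipogenic progenitor markers 6 rose, beside the same 5.10%. Their sums were 5918, 7135 and 7026 CPM in mdx/Runx1f/f replicates 1 to 3, against 2436, 2777, 1680 and 2819 CPM in mdx replicates 1 to 4. By edgeR 0 of 6 satellite cell and regenerating fibre markers and 0 of 4 endothelial markers were called, beside 6.95% of all tested genes. At an unadjusted p below 0.05, 4 and 0 of these were higher and none lower, beside 29.5%. Odc1 also stood apart between the groups, and its order within them differed from that of the macrophage markers. For example, mdx replicate 1 had more macrophage transcript than mdx replicate 4 but less Odc1. The libraries had the same order for Odc1 and for the fibro-adipogenic progenitor sums except that mdx replicates 2 and 4 changed places. Whether these cell types carry the Sat1 or Odc1 difference was not tested. In whole muscle, more cells of a type and more RNA per cell cannot be told apart.

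Smox encodes spermine oxidase, which returns spermine to spermidine and releases hydrogen peroxide. It stood at 1476, 535 and 257 normalised counts in mdx/Runx1f/f libraries, against 314, 275, 346 and 299 in mdx libraries. The mdx/Runx1f/f libraries ran from above to below the whole mdx range, and the mdx libraries lay close together. The means were 756 ± 639 (SD, n = 3) and 308 ± 29.6 (SD, n = 4), with a log2 fold change ± SE of 1.31 ± 0.49 (edgeR adjusted p = 0.127). It was 0.36 without mdx/Runx1f/f replicate 1 (edgeR adjusted p = 0.401, with 0.0430 to 0.401 across the alternatives), and 1.71 and called without replicate 3 (edgeR adjusted p = 0.0461). Within animals 358 to 363 the log2 difference was 1.60. Within animals 373 to 375, which hold 1 mdx/Runx1f/f library, it was -0.31. DESeq2 called Smox (adjusted p = 0.0430), while the authors' deposited table gives an adjusted p of 0.0578.

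Smox and Sms were highest in mdx/Runx1f/f replicate 1, the library with the most fast-fibre transcript. Myh4 stood at 246072, 53268 and 1293 normalised counts in mdx/Runx1f/f replicates 1 to 3, the same order as both genes, against 739, 2019, 8982 and 3277.5 in mdx replicates 1 to 4. Of the other fast-fibre markers, Myh1, Pvalb and Atp2a1 shared that order in the mdx/Runx1f/f libraries. Tnnt3, Tnni2 and Mylpf did not, and were higher in replicate 3 than in replicate 2. By edgeR 0 of the 7 fast-fibre markers were called, beside 6.95% of all tested genes, and their median log2 fold change was 0.13. The summed fast-fibre markers were 73676, 30118 and 25344 CPM in mdx/Runx1f/f libraries, against 24356, 22509, 36219 and 36458 CPM in mdx libraries. Among the mdx libraries, replicate 3 had the most Myh4, Sms and Smox, while replicate 2 had the least Sms and Smox but more Myh4 than replicate 1. The part of fibre type in these values was not tested.

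**Figure D2:**
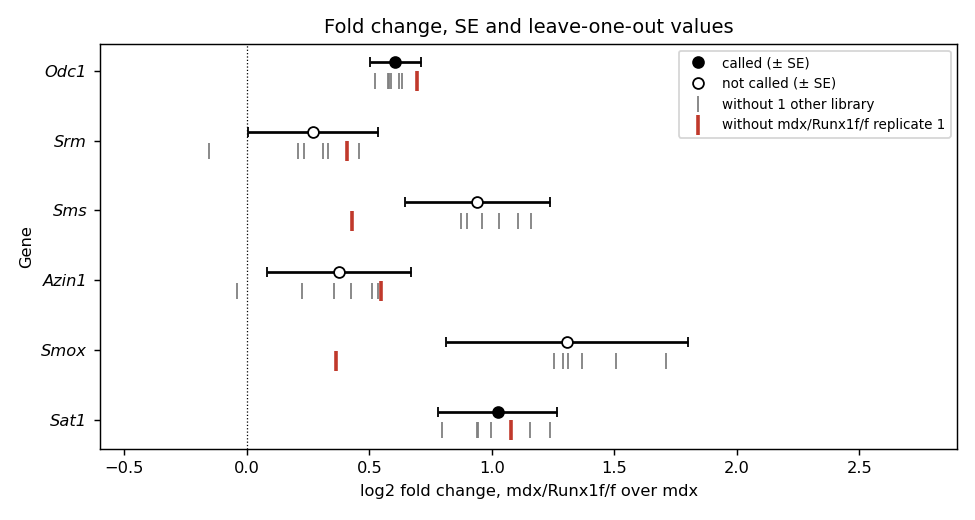
Log2 fold change of the 6 tested members, mdx/Runx1f/f over mdx, on the horizontal axis, with its standard error (filled where the adjusted p was below 0.05). Ticks under each point show the value with 1 library left out, in red without mdx/Runx1f/f replicate 1: Sms and Smox drop to 0.43 and 0.36 there, while Odc1 and Sat1 stay at 0.70 and 1.08.

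**Figure D3:**
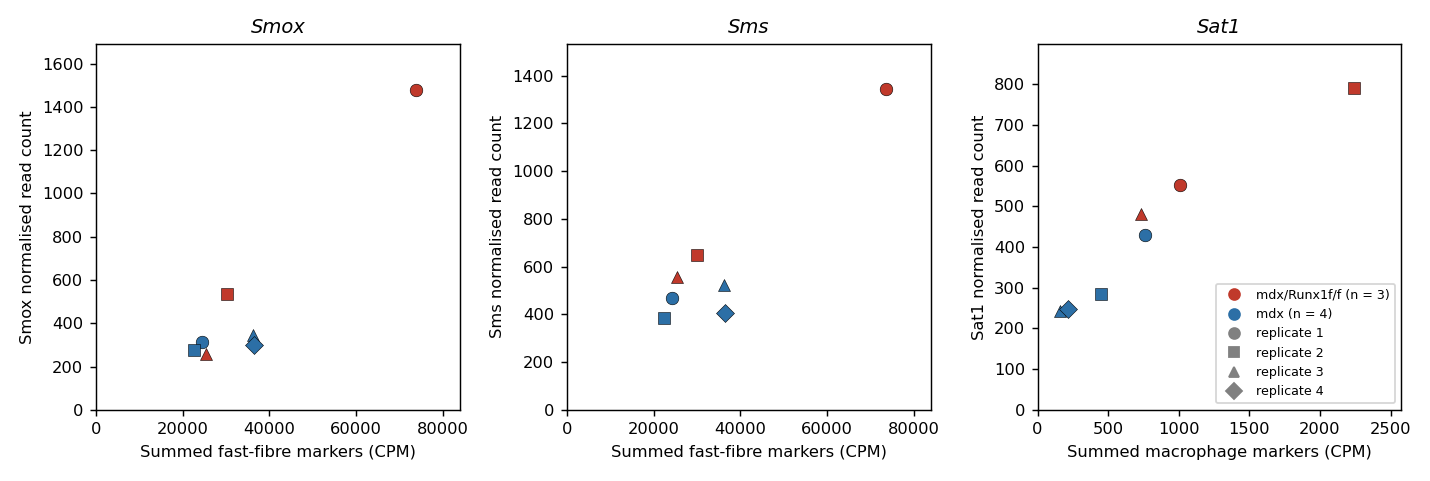
Normalised read counts of Smox, Sms and Sat1 (vertical axes) against the summed level of fast-fibre or macrophage markers in CPM (horizontal axes), 1 point per library. A single library, mdx/Runx1f/f replicate 1, lies at the upper right for Smox and Sms. In the Sat1 panel the groups cross on the macrophage axis only at mdx/Runx1f/f replicate 3 and mdx replicate 1. On the Sat1 axis the groups do not overlap.

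Levels were compared between genes per length, as normalised counts per kilobase of exon. Exon lengths came from GENCODE M21 on GRCm38, whereas the authors counted on mm9, so the order is approximate. In mdx/Runx1f/f libraries Sat1 was highest, at 514 ± 137 per kilobase (SD, n = 3), followed by Azin1 at 469 ± 201, Odc1 at 297.5 ± 38.2, Smox at 244 ± 206, Sms at 229 ± 116 and Srm at 153 ± 68.0 (SD, n = 3 each). Azin1 lay above Odc1 there in every library (at least 346 and at most 331 per kilobase), and the ranges of all other neighbours overlapped. In mdx libraries Azin1 was highest, at 363 ± 90.2 per kilobase (SD, n = 4), followed by Sat1 at 254 ± 74.0, Odc1 at 196 ± 10.1, Srm at 127 ± 17.0, Sms at 120 ± 17.1 and Smox at 99.5 ± 9.56 (SD, n = 4 each). In the mdx libraries the ranges of neighbours overlapped in this order, except that Odc1 (188 to 208 per kilobase) lay above Srm (110 to 145 per kilobase).

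For the members that rose, the genes with the most similar pattern were sought among 9972 tested genes with a mean of at least 100 normalised counts, by Pearson's r of log2 CPM over the 7 libraries. Odc1 was most like Glipr2, Ckap4 and Slc39a7 (r = 0.991, 0.989 and 0.989), and Sat1 was most like Ctsz, Npc2 and Ptk2b (r = 0.998, 0.996 and 0.991). These are the highest of many values over few libraries in separate groups, so they describe likeness only.

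Around the members, 47 further genes of polyamine enzymes, transport, hypusination, arginine and methionine supply and regulation were read, and 39 were tested. By edgeR 1 of these rose and 0 fell at an adjusted p below 0.05, and 7 were higher and 3 lower at an unadjusted p below 0.05. These are 2.56% and 25.6% of the 39, beside 6.95% and 29.5% of all tested genes. DESeq2 called 4 higher and 1 lower, or 12.8% beside 17.0% of all tested genes, and limma-voom 2 higher and 0 lower, beside 7.30%. The median log2 fold change of the 39 was 0.09. The gene that rose was Eif5a2, a paralogue of the translation factor gene Eif5a, whose product is modified with hypusine, an amino acid made from spermidine. Eif5a2 stood at 116, 127 and 86.8 normalised counts in mdx/Runx1f/f libraries, against 66.6, 56.4, 36.4 and 51.3 in mdx libraries. Every mdx/Runx1f/f library was higher, and the log2 fold change was 1.07 (SE 0.23, edgeR adjusted p = 0.0377). That call was lost without mdx replicates 2, 3 or 4 (edgeR adjusted p = 0.0747, 0.0843 and 0.0909). It was also lost without mdx/Runx1f/f replicates 1 or 2 (edgeR adjusted p = 0.0767 and 0.126). Across the alternatives the adjusted p ran from 0.00167 (DESeq2) to 0.155 (edgeR). Eif5a itself, at 3726 ± 180 normalised counts (SD, n = 3) in mdx/Runx1f/f libraries and 3883 ± 272 (SD, n = 4) in mdx libraries, and the hypusine-forming enzyme genes Dhps and Dohh had log2 fold changes of -0.05, -0.07 and -0.06, and were not called.

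The supply and transport lists held no called gene by edgeR, with 2 of 10 arginine and ornithine genes, 3 of 9 methionine and salvage genes and 2 of 7 transport genes at an unadjusted p below 0.05, a criterion met by 29.5% of all tested genes. DESeq2 called Ass1, Gatm and Mat2b among them, and limma-voom Ass1. Gatm, which encodes the arginine-using enzyme that opens creatine synthesis, had the smallest p of the supply list. It stood at 1360, 344 and 429 normalised counts in mdx/Runx1f/f libraries, against 134, 161, 238 and 214 in mdx libraries (log2 fold change 1.94, SE 0.48, edgeR adjusted p = 0.0504), and like Smox and Sms it was highest in mdx/Runx1f/f replicate 1. DESeq2 called Gatm (adjusted p = 0.000722), and it had a log2 value of 1.05 without mdx/Runx1f/f replicate 1 (edgeR adjusted p = 0.0554, with 0.000722 to 0.181 across the alternatives). Mat2b, the regulatory subunit gene of the enzyme that makes S-adenosylmethionine, averaged 1311 ± 81.9 normalised counts (SD, n = 3) in mdx/Runx1f/f libraries and 1606 ± 51.0 (SD, n = 4) in mdx libraries (log2 fold change -0.29, edgeR adjusted p = 0.0711). Slc3a2, the transporter heavy chain gene with the smallest p of its list, had a log2 change of 0.71 (edgeR adjusted p = 0.106, not called).

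Among further enzymes, Sat2, a relative of Sat1, had the smallest p, at a log2 change of -0.42 (edgeR adjusted p = 0.221), and the oxidase gene Paox had at most 8 counts in a library and was not tested. Of the 5 regulators none was called by edgeR or limma-voom. DESeq2 called Myc, and 2 had an unadjusted p below 0.05 by edgeR, beside 29.5% of all tested genes. Myc, a transcription factor gene whose product is known to activate Odc1, stood at 171, 386 and 211 normalised counts in mdx/Runx1f/f libraries, against 132, 139, 80.6 and 131 in mdx libraries. The groups did not overlap, as in 27.4% of all tested genes, and the log2 fold change was 1.09 (SE 0.30, edgeR adjusted p = 0.0649). It was 0.67 without mdx/Runx1f/f replicate 2 (edgeR adjusted p = 0.186).

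**Figure D4:**
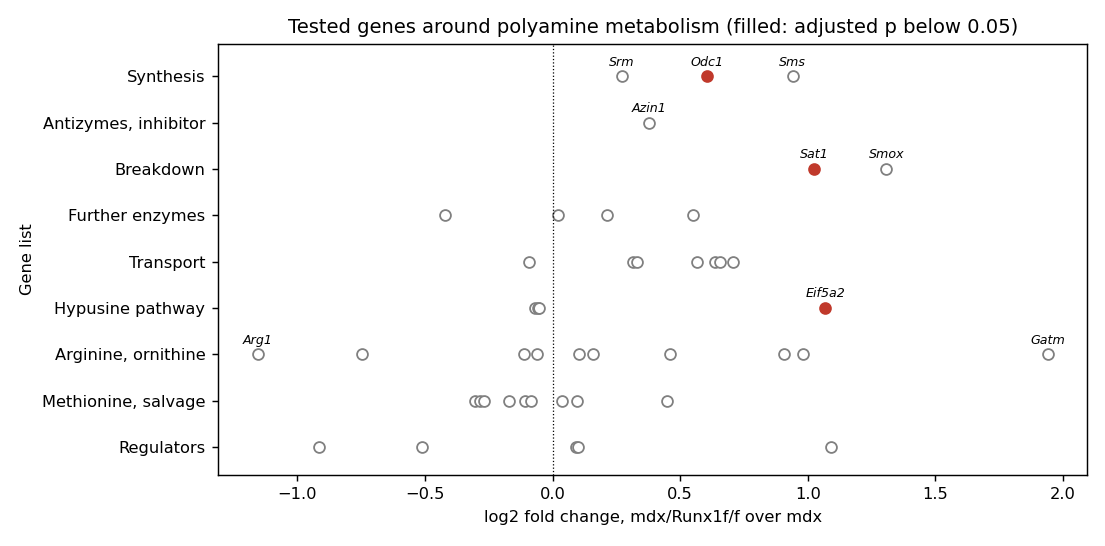
Log2 fold change, mdx/Runx1f/f over mdx (horizontal axis), of each tested gene by list (vertical axis), filled in red where the edgeR adjusted p was below 0.05. Odc1, Sat1 and Eif5a2 are filled, and the breakdown members lie furthest right of the 3 member lists at 1.02 and 1.31.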

How the data were processed

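The authors deposited 1 table for the 7 libraries. Its raw read counts per gene symbol were made by the authors with TopHat2 2.0.10 and HTSeq on mm9, per the submitters' processing notes. Its normalised counts are a signal the authors deposited after dividing each library by a size factor. Its log2 fold changes and p-values, raw and adjusted, are the authors' deposited comparison, with DESeq2 1.6.3 named in the submitters' processing notes. No source used here gives the annotation, the strand setting or the treatment of multiple matches. Whole libraries held 16218306 to 20847902 counts, and no molecular identifiers are mentioned.

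Columns were joined to samples through the animal number in the titles. All 7 libraries entered 1 model in edgeR 4.0.16 (R 4.3.3) with TMM factors, filterByExpr, the quasi-likelihood test and group as sole term. Benjamini-Hochberg adjustment ran over 14033 tested genes, and calls were made at 0.05. Standard errors are the log2 fold change divided by the root of F. Log2 CPM used a prior count of 2. Alternatives used DESeq2 1.42.0, limma 3.58.1, other normalisations and filters, a replicate block, the animal number series and leaving out each library. The fit was tested on simulated data.

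The members and gene lists were chosen with earlier results of these data known. The text names all members, called genes of the wider lists and otherwise the gene with the smallest p of each list. The wider lists also held Slc18b1, which was not analysed here, and the values of 1 listed regulator, counted among them, are not reported here.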

Additional observations from a re-analysis of the deposited data

Results flagged for a closer look

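In the mdx group of 4 libraries, the values of the 15 genes named by rule were examined for a library far from the others, and such a gap arises by chance in about 1 in 20 groups. Sat2 stood at 66.8 normalised counts in mdx replicate 2 and at 87.9 to 90.5 in the other mdx libraries. Myc stood at 80.6 normalised counts in mdx replicate 3 and at 131 to 139 in the other mdx libraries. No member showed such a gap within the mdx group. The mdx/Runx1f/f group of 3 libraries is too small for this rule.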

How the results depend on the processing

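Over all tested genes 975 were called. The count was 2386 with DESeq2, 1828 with the animal number series as covariate, 0 in animals 358 to 363 alone (2669 genes at an unadjusted p below 0.05) and 1801 in animals 373 to 375 alone, and it ran from 190 to 803 when 1 library was left out. Among the members 2 were called, against 4 with DESeq2, 0 in animals 358 to 363 alone (4 at an unadjusted p below 0.05) and 0 to 2 with 1 library left out. In the wider list 1 was called, against 5 with DESeq2, 2 with RLE normalisation, limma-voom or no filter, and 4 with the series covariate. The wider count was 0 in animals 358 to 363 alone, and 0 to 3 with 1 library left out. With a filter of 10 CPM that 1 call was Gatm, since Eif5a2 was no longer tested. Odc1 and Sat1 were called under all 3 normalisations, both other filters, DESeq2, limma-voom and the covariate. The log2 fold change reversed for Srm (-0.076 in animals 373 to 375 alone, and -0.15 without mdx/Runx1f/f replicate 2, in a leave-one-out range of -0.15 to 0.46), Azin1 (-0.041 without mdx/Runx1f/f replicate 3, range -0.041 to 0.55) and Smox (-0.32 in animals 373 to 375 alone), none of them called there. The causes were not tested.

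With the title number as a replicate block, 320 genes, 0 members (4 at an unadjusted p below 0.05) and 0 wider genes were called, and Odc1 and Sat1 had adjusted p-values of 0.0536 and 0.0782 by edgeR. Same-numbered libraries correlated at -0.00687, 0.241 and 0.275 in their deviations from the group means. Differently numbered libraries were not compared, so these values cannot decide whether the numbers are pairs. The main fit did not treat them as pairs.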
